A study of Mus musculus with 2 samples.

Results

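The 33 genes described here carry fuel carbon into and around the mitochondrial citric acid (TCA) cycle: the pyruvate carrier, the pyruvate dehydrogenase complex with its kinases and phosphatases, the enzymes of the cycle, the malate-aspartate shuttle, and the dehydrogenase that commits branched-chain amino acids to oxidation. They were chosen by gene symbol, with no measured value in the rule, and all 33 were found among 55536 named genes. Each was measured in 2 total RNA libraries of the gastrocnemius, the large calf muscle, from female B6CASTF1/J mice, an F1 hybrid of a C57BL/6J and a CAST/EiJ parent, at 10 days after birth. Both libraries were made from 300 ng of RNA with spike-in RNAs added and ribosomal RNA reduced, and they form 1 untreated group, labelled biological replicates 1 and 2. The labels give separate biosamples and do not say whether each came from 1 animal. There is no second group, so no test between conditions or between the libraries is possible. Values are given per library or as mean ± SD with n = 2, and an SD here measures only the spread between these 2 samples.

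Pyruvate made in the cytosol enters mitochondria through the Mpc1 and Mpc2 carrier. The pyruvate dehydrogenase complex converts it to acetyl-CoA with 3 enzymes: E1 (Pdha1 and Pdhb), which decarboxylates, E2 (Dlat), which transfers the acetyl group on a lipoyl arm, and E3 (Dld), which reoxidises that arm and is held in place by Pdhx. The kinases Pdk1 to Pdk4 phosphorylate E1 and switch the complex off, and the phosphatases Pdp1 and Pdp2 switch it on. The 2-oxoglutarate dehydrogenase of the cycle and the branched-chain dehydrogenase are built on the same plan and share the E3 subunit. In muscle this set of enzymes balances the use of glucose, fat and amino acids.

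The libraries hold 35666448 and 39650328 expected counts over named genes. The skeletal muscle markers Acta1, Mylpf, Ckm, Myh4 and Tnnt3 were all detected, with a summed transcript abundance (TPM, a length-corrected level scaled to a fixed total per library) of 67971 in replicate 1 and 79978 in replicate 2, and the brown fat marker Ucp1 was at 0 counts in both. Markers of some other tissues stood apart in replicate 1. The bone markers Spp1, Bglap and Ibsp had TPMs of 107, 77.5 and 34.2 there and 0.570, 0 and 0 in replicate 2, while the cartilage markers Col2a1, at 14.7 and 11.5, and Acan, at 2.24 and 1.54, were closer; all 5 summed to 236 and 13.6. The 4 neutrophil markers summed to 49.8 and 0.62, the 3 hepatocyte markers to 22.9 and 0.680, and the 4 adipocyte markers to 13.8 and 5.51. Fibroblast markers summed to 5478 and 3443, of which Col1a1 held 3542 and 1887. The other fibroblast markers were closer: Col3a1 at 1617 and 1277, Dcn at 255 and 230, Lum at 40.7 and 31.5, and Pdgfra at 23.1 and 18.4. Macrophage markers summed to 27.2 and 17.8. Erythroid markers summed to 1268 and 976. Hba-a1 was at 615 and 500, Hbb-bs at 638 and 469, Alas2 at 10.4 and 7.23, and Slc4a1 at 4.73 and 0.210. Cardiac muscle markers summed to 69.0 and 55.1, of which Myh6 held 47.3 and 37.3. Differences were smaller for endothelial markers, at 148 and 130.4, and Schwann cell markers, at 222 and 183. In whole muscle, fewer cells of a type and less RNA per cell cannot be told apart.

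All 33 genes were detected, taken as a TPM of at least 1 in both libraries, where 52.3% of 22015 nuclear protein coding genes were. Their median TPM was 107, against 9.35 for detected nuclear protein coding genes. Of the 33, 29 lay above that median, 22 in the top 10% and 18 in the top 5% of detected coding genes. Together they held 0.334% of named gene TPM in replicate 1 and 0.386% in replicate 2. This share depends on the denominator: nuclear protein coding genes held 46.1% and 47.0% of named gene TPM in the RSEM-format tables and 75.6% and 75.5% in the kallisto-format tables, a second quantification of the same libraries. Over nuclear protein coding genes alone it was 0.773% ± 0.0676 (SD, n = 2), and 0.776% ± 0.0418 in the kallisto-format tables.

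**Figure D1:**
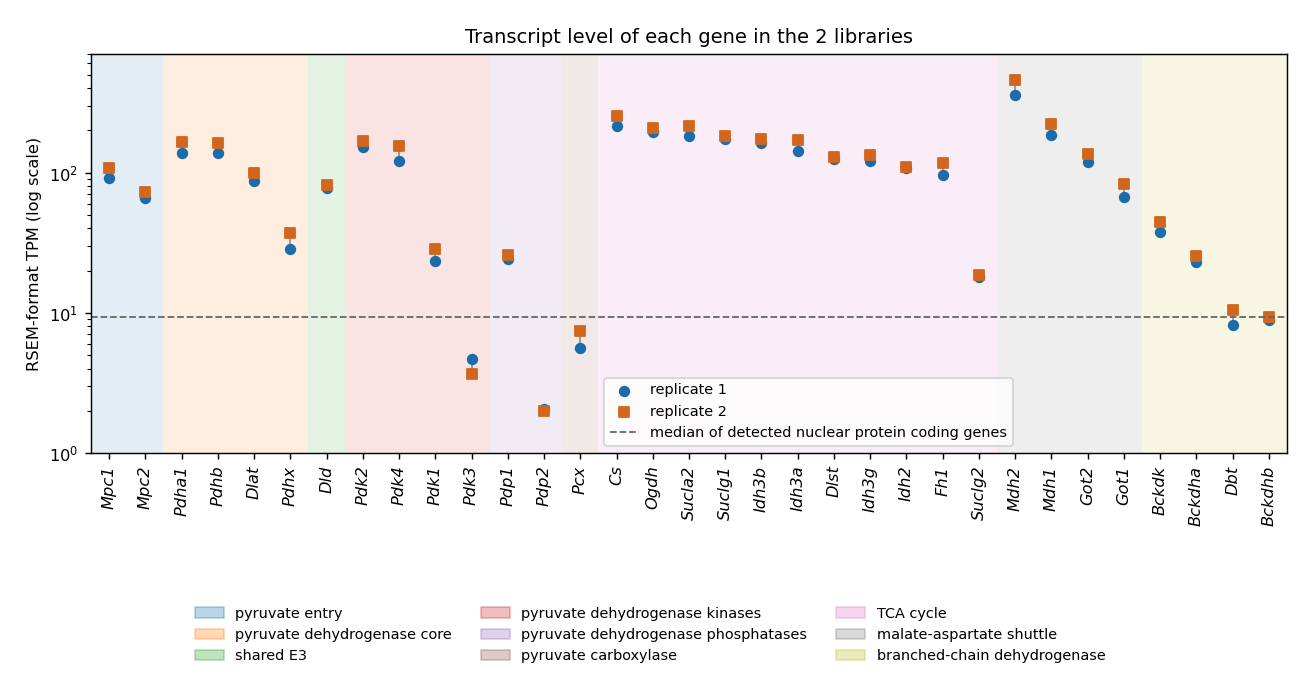
TPM of each of the 33 genes on a log axis, with replicate 1 as circles and replicate 2 as squares, shaded by role; the dashed line is the median of detected nuclear protein coding genes (9.35). Mdh2 is the highest, at 360 and 454, and Pdp2 the lowest, at 2.07 and 2.00.

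The cycle enzymes held 45.7% ± 1.11 of the TPM of the 33 genes, the malate-aspartate shuttle 22.9% ± 0.956, the pyruvate dehydrogenase core 11.97% ± 0.256 and its kinases 9.22% ± 0.107 (SD, n = 2). Mdh2, which works in both the cycle and the shuttle, is counted in the shuttle here; counted in the cycle, it would bring the cycle to 57.1% ± 0.381 and leave the shuttle 11.5% ± 0.227. The pyruvate carrier held 4.73%, the branched-chain dehydrogenase with its kinase 2.36%, Dld 2.24%, the phosphatases 0.763% and pyruvate carboxylase 0.183%. Ordered by mean RSEM-format TPM, 10 of the 32 neighbouring pairs had ranges that did not overlap. Within that measure the order went in steps rather than gene by gene, with 2 values per gene. Such steps separated Mdh2 from Cs, Idh3g from Idh2, Dlat from Dld, Mpc2 from Bckdk, and Bckdk from Pdhx. At the low end they separated Bckdha from Suclg2, Suclg2 from Dbt, Bckdhb from Pcx, Pcx from Pdk3, and Pdk3 from Pdp2. The order depends on the quantification. In the kallisto-format tables Idh3g, at 184 and 196, stayed above Idh2, at 156 and 154. There Fh1, at 268 and 288, Dlat, at 201 and 212, and Mpc1, at 200 and 204, lay above Idh3g.

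Both carrier genes were well expressed. Mpc1 (chromosome 17, 8282904 to 8297661, mm10) stood at a TPM of 91.2 in replicate 1 and 107 in replicate 2, and Mpc2 at 65.4 and 72.6. Mpc1 was the higher in both libraries, with a log2 ratio of Mpc2 over Mpc1 of -0.52 ± 0.06 (SD, n = 2). The level of Mpc1 is uncertain, since the processed pseudogene Mpc1-ps shares 28.99% of the 31-base words of its leading transcript and was listed at TPMs of 41.6 and 45.0 in the RSEM-format tables and 0 in the kallisto-format ones.

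The subunits of pyruvate dehydrogenase E1 were matched in RSEM-format TPM. Pdha1, the alpha subunit (X chromosome, 160122209 to 160138413), stood at TPMs of 137 and 164, and Pdhb, the beta subunit (chromosome 14, 8165996 to 8173025), at 137 and 164. Their log2 ratio was 0.00 in both libraries. In the kallisto-format tables Pdhb was the higher, with a log2 ratio of -0.21 ± 0.12, and the pseudogene Gm6123 shares 41.9% of the words of Pdhb, so the match depends on the quantification; as a ratio of counts, not corrected for length, Pdha1 over Pdhb was 0.94 ± 0.02. Pdha2, the testis form of the alpha subunit, had 0 counts in both libraries, and Pdha1 was at least 2903-fold higher in replicate 1 and at least 3957-fold higher in replicate 2 in TPM, against a floor of 3 counts per library turned into TPM with the effective length of Pdha2. Dlat, the E2 subunit, stood at 86.7 and 98.5, Dld, the shared E3, at 77.7 and 81.1, and Pdhx at 28.3 and 36.8. Dlat exceeded Pdhx by 1.52 ± 0.14 on the log2 scale.

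Pyruvate carboxylase, the enzyme that makes oxaloacetate from pyruvate to refill the cycle, was far lower. Pcx (chromosome 19, 4510472 to 4621752) stood at TPMs of 5.64 and 7.40, below the median of detected coding genes, and Pdha1 exceeded it by 4.54 ± 0.09 on the log2 scale (23.2-fold). The ranges of both genes were far apart in both libraries.

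Of the 4 kinases, Pdk2 and Pdk4 made up nearly all of the transcript pool. Pdk2, the broadly expressed form (chromosome 11, 95026258 to 95041354), stood at TPMs of 153 and 168, and Pdk4, the form induced by fasting and fat use (chromosome 6, 5483351 to 5496309), at 121 and 154. Pdk1, a target of the hypoxia response, stood at 23.4 and 28.6, and Pdk3 at 4.69 and 3.65. Pdk2 held 49.1% ± 2.25 of kinase TPM, Pdk4 41.7% ± 2.39, Pdk1 7.91% ± 0.230 and Pdk3 1.29% ± 0.370 (SD, n = 2).

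The order of the leading pair depends on the measure. The log2 ratio of Pdk4 over Pdk2 was -0.34 in replicate 1 and -0.13 in replicate 2 in TPM, and -0.46 ± 0.13 in the kallisto-format tables, but 0.10 ± 0.09 as a ratio of expected counts, which are not corrected for transcript length. Pdk4 over Pdk1, at 2.399 ± 0.04, and Pdk2 over Pdk3, at 5.28 ± 0.35, kept their direction in all 3 measures.

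The phosphatases were much lower than the kinases. Pdp1, the calcium-stimulated form known from muscle, stood at TPMs of 24.4 and 25.6, and Pdp2 at 2.07 and 2.00. Pdp1 held 92.5% ± 0.420 of phosphatase TPM, and the summed kinase TPM was 12.1 ± 0.990 times the summed phosphatase TPM (SD, n = 2). These are transcript levels; protein and activity were not measured.

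Citrate synthase opened the cycle at a high level. Cs (chromosome 10, 128337734 to 128362479) stood at TPMs of 214 and 253. The NAD-dependent isocitrate dehydrogenase has 3 kinds of subunit: Idh3b stood at 162 and 174, Idh3a, the catalytic one, at 142 and 171, and Idh3g at 120 and 134. Idh3a and Idh3b did not differ beyond their spread (log2 ratio -0.10 ± 0.12 in TPM, and 0.34 ± 0.12 in counts, where Idh3a was the higher in both), while Idh3g lay below Idh3b in both libraries, at -0.40 ± 0.03.

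Idh2, the NADP-dependent mitochondrial isocitrate dehydrogenase, stood at 108 and 110. It lay below Idh3a in both libraries, at a log2 ratio of -0.52 ± 0.18, and above its cytosolic counterpart Idh1 by 2.79 ± 0.29. Next in the cycle, Ogdh, the E1 of 2-oxoglutarate dehydrogenase, stood at 194 and 206, and its E2 Dlst at 126 and 129. Ogdh exceeded the related Ogdhl by 7.84 ± 0.38 and Dhtkd1 by 7.94 ± 0.43 on the log2 scale, and both of these relatives had a mean TPM under 1.

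Succinyl-CoA ligase pairs an alpha subunit, Suclg1, with a beta subunit that sets the nucleotide: Sucla2 gives ATP and Suclg2 gives GTP. Suclg1 stood at TPMs of 172 and 182, Sucla2 at 182 and 215 and Suclg2 at 17.8 and 18.6. Sucla2 held 91.5% ± 0.690 of the TPM of the beta subunits and exceeded Suclg2 by 3.44 ± 0.13 on the log2 scale (10.9-fold; SD, n = 2). The kallisto-format share was 90.7% ± 1.14 and the share of counts 88.5% ± 0.858. The level of Suclg2 is uncertain, since the pseudogene Gm15163 shares 36.3% of the words of its leading transcript. Fumarase, Fh1, stood at 96.8 and 116.

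The malate-aspartate shuttle moves reducing power from cytosolic NADH into mitochondria, with a cytosolic and a mitochondrial form of each of 2 enzymes. Mitochondrial malate dehydrogenase, Mdh2 (chromosome 5, 135778480 to 135790398), had TPMs of 360 and 454, and the cytosolic Mdh1 had 186 and 223. Mitochondrial aspartate aminotransferase, Got2, had 120 and 136, and the cytosolic Got1 had 67.3 and 83.1. In both pairs the mitochondrial form was the higher in both libraries, with log2 ratios of -0.99 ± 0.05 for Mdh1 over Mdh2 and -0.77 ± 0.08 for Got1 over Got2. Mdh2 also works in the cycle itself. Got2-ps1 shares 38.9% of the words of Got2 and was listed at TPMs of 29.2 and 31.1, so the level of Got2 is uncertain.

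The branched-chain dehydrogenase was expressed at a far lower level than its pyruvate counterpart. Bckdha, its E1 alpha subunit, stood at TPMs of 23.0 and 25.5, Bckdhb, the beta subunit, at 8.87 and 9.31, and Dbt, the E2, at 8.17 and 10.5. The alpha subunit exceeded the beta subunit in both libraries, by 1.41 ± 0.06 on the log2 scale. The mean TPM of Pdha1, Pdhb, Dlat and Pdhx was 7.48 ± 0.261 times that of Bckdha, Bckdhb and Dbt (SD, n = 2). Among the 3 lipoyl E2 subunits, Dlst held 55.6% ± 1.92 of TPM, Dlat 40.3% ± 1.42 and Dbt 4.06% ± 0.506.

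Bckdk, the kinase that switches the branched-chain complex off, stood at 37.6 and 44.7, above each of the subunits specific to that complex in both libraries. Its opposing phosphatase Ppm1k stood at 3.52 and 4.75, and Bckdk exceeded it by 3.33 ± 0.13 on the log2 scale. The transaminase pair before the dehydrogenase was less clear: the log2 ratio of mitochondrial Bcat2 over cytosolic Bcat1 was 0.79 ± 0.36 in TPM, 0.11 ± 0.39 in kallisto-format TPM and -0.15 ± 0.33 in counts.

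**Figure D2:**
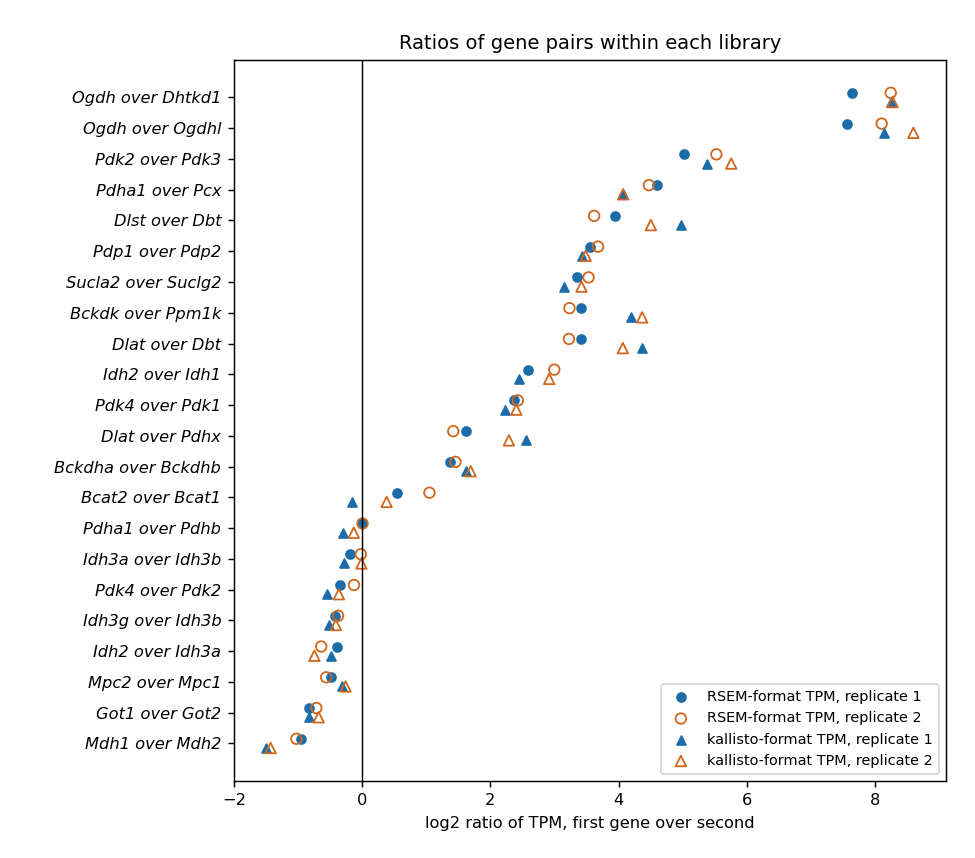
Log2 ratio of TPM for the 22 measured gene pairs, first gene over second, with circles for RSEM-format and triangles for kallisto-format tables, filled for replicate 1 and open for replicate 2. Ogdh lies about 8 log2 units over Ogdhl and Dhtkd1, while Pdha1 over Pdhb and Idh3a over Idh3b lie at or near 0.

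Over the 24 listed pairs, 22 could be measured. A pair was given a direction if its log2 ratio had 1 sign in both libraries and a mean larger than 1 SD. The first gene was the higher in 14, the second in 6 and neither in 2, and 11 pairs differed by at least 4-fold in both libraries. The call was the same in 20 of the 22 with kallisto-format TPM and in 18 with expected counts.

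Most other genes of these pathways were detected too. Of 14 related cycle genes, 13 were detected, among them the succinate dehydrogenase subunits Sdhc, at a TPM of 295 ± 61.2, and Sdhb, at 202 ± 30.9 (SD, n = 2). The 10 lipoate and cofactor genes, which arm the E2 subunits, had 9 detected and stood lower, led by the iron-sulfur genes Glrx5 at 28.1 ± 1.83 and Nfu1 at 27.8 ± 0.219 and by Pdpr, a regulator of the phosphatase, at 24.9 ± 2.15. Of the branched-chain steps around the dehydrogenase, 21 of 21 matched genes were detected, led by Hsd17b10 at 42.2 ± 2.24. Among 5 carriers, 4 were detected, and the aspartate-glutamate carrier Slc25a12, at 130 ± 15.7, stood far above its paralog Slc25a13, at 0.630 ± 0.325. The restricted paralogs Pdha2, Got1l1 and Ldhc were at 0 counts, and a floor of 3 counts would correspond to 0.0841 CPM (counts relative to the library total) for replicate 1 and 0.0757 for replicate 2, covering counting error only.

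Between the libraries, 32 of the 33 genes were higher in replicate 2 after TMM scaling, where 49.4% of 15204 genes were (those whose mean count reached 20). Their median log2 ratio of replicate 2 over replicate 1 was 0.41, with a range from -0.03 for Pdk3 to 0.61 for Dbt, against a median of -0.00 for all genes. None differed by 2-fold, where 4.94% of genes did, and Dbt alone differed by 1.5-fold, where 11.8% did. The pyruvate dehydrogenase core had a median of 0.51, the malate-aspartate shuttle 0.51, the cycle enzymes 0.41, the branched-chain dehydrogenase 0.38 and the phosphatases 0.23.

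These values can be set beside those of genes of like abundance and beside other scalings. The 10457 nuclear protein coding genes within the TPM span of the 33 had a median of 0.04, with 57.1% above 0. The 568 nuclear protein coding genes with a mean TPM of at least 100 had a median of 0.29, and 90.7% of them were higher in replicate 2; the 17 of the 33 genes in that range had a median of 0.42. With spike-in scaling, 25 of the 33 were higher, at a median of 0.07, where 10.1% of all genes were higher and their median was -0.35; with library totals, 31 were higher at a median of 0.22, where 24.1% of genes were. These scalings shift every gene by the same amount, so in each of them 32 of the 33 lay above the median of all genes. The 5 skeletal muscle markers were also all higher in replicate 2, at a median of 0.46, and the 3 bone markers and the neutrophil, hepatocyte and adipocyte markers were lower there. The part of these markers' tissues in the difference was not tested. The related lists went different ways. Of the branched-chain steps around the dehydrogenase, 20 of 21 were higher in replicate 2 with TMM scaling, at a median of 0.34, and of the lipoate and cofactor genes 8 of 10, at 0.28. Only 7 of the 14 related cycle genes were higher, at a median of 0.16, and 2 of the 5 carriers, at -0.05.

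**Figure D3:**
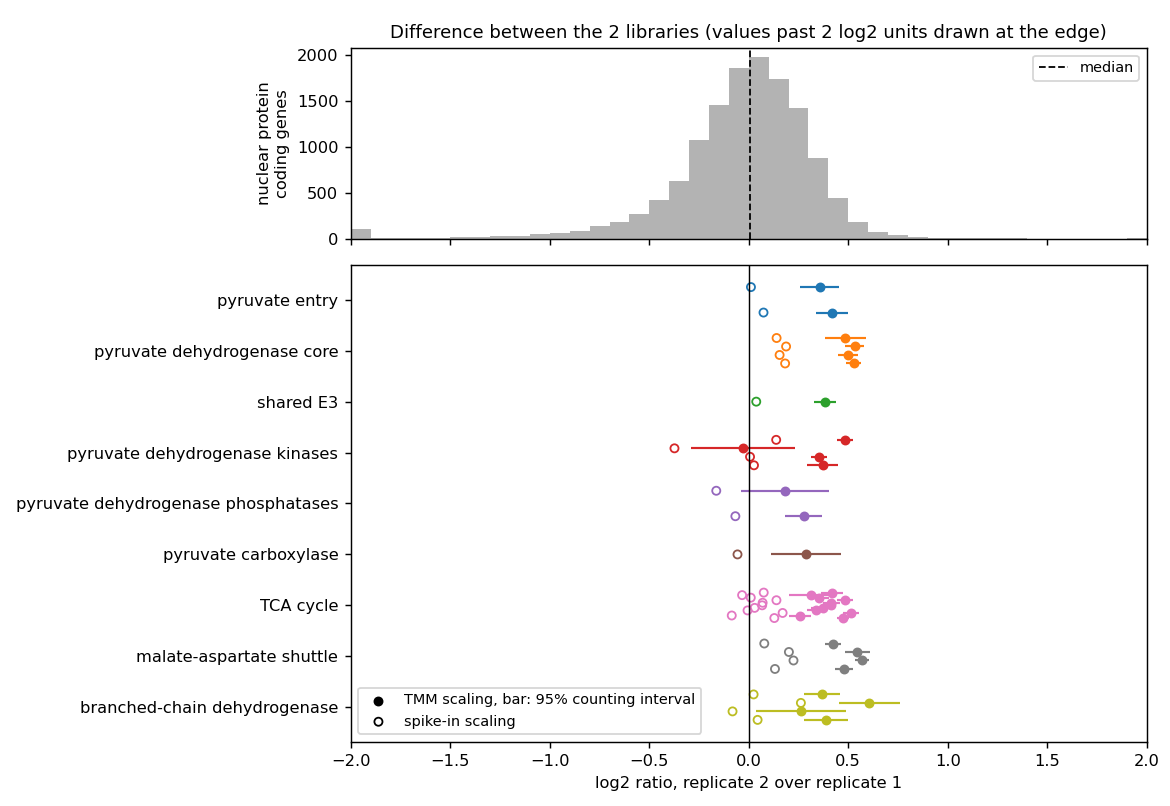
Log2 ratio of replicate 2 over replicate 1 for nuclear protein coding genes (histogram, top) and for the 33 genes by role (bottom), filled with TMM scaling and its 95% counting interval and open with spike-in scaling. The TMM values of the 33 genes lie between -0.03 and 0.61 and the spike-in values are 0.34 lower.

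Most of the genes had the same leading transcript in both libraries and both kinds of table. The annotation lists 178 transcripts for the 33 genes, and 32 genes have more than 1. The leading transcript was the same in both libraries for 32 of 32, where this held for 87.7% of detected genes with several transcripts, and it was also the same in both kinds of table for 27, where 64.1% did so. In 11 of the 33 genes it held at least 90% of the gene's TPM in both libraries, as Cs-201 did with 99.6% and 99.9%. These include Pdp2, which has only 1 annotated transcript, so its share is fixed at 100%. In 11 others a second transcript reached 20% in both libraries.

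Idh3a and Mdh2 had a second or leading transcript that the annotation marks for nonsense-mediated decay, the pathway that destroys messages with an early stop codon. Idh3a-204, so marked, held 51.1% and 51.5% of Idh3a TPM, against 43.0% and 45.3% for the protein coding Idh3a-205. Idh3a-204 was the only leading transcript of the 32 that is not annotated as protein coding, where 7.08% of detected genes with several transcripts have one. By counts the order turned, with 43.0% and 42.9% for Idh3a-204 and 52.4% and 54.7% for Idh3a-205; the kallisto-format shares were 62.7% and 67.1% against 36.4% and 32.6%. Idh3a-204 carries a 95-base exon that Idh3a-205 lacks (chromosome 9, 54592161 to 54592255, plus strand). The sequences below, from the GENCODE M21 transcripts, show how that exon ends the reading frame: both run from the annotated start codon of Idh3a-204 for 114 bases, and capitals mark the bases after the shared part, which in Idh3a-204 end in the stop codon TAA after 37 codons.
Idh3a-204: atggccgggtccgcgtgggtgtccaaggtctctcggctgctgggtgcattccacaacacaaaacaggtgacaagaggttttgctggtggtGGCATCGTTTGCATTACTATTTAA
Idh3a-205: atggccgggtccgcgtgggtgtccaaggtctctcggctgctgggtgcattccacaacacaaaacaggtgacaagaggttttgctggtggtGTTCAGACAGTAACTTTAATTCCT
The coding sequence of Idh3a-205 begins further upstream and has 384 codons. These transcripts also differ at their ends, with a last exon of 664 bases in Idh3a-204 and 1380 in Idh3a-205, so the tables' shares cannot be assigned to the exon alone.

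Mdh2-203, also marked for decay, held 34.3% and 33.2% of Mdh2 TPM, against 64.6% and 66.0% for the protein coding Mdh2-201. In the kallisto-format tables it held 8.55% and 10.9%, so its share depends strongly on the quantification. It leaves out the second exon of Mdh2-201, 169 bases on chromosome 5 from 135783305 to 135783473. These transcripts also differ at their ends. The first exon has 140 bases in Mdh2-203 and 322 in Mdh2-201, and the last has 322 and 315. The shares therefore cannot be assigned to the left-out exon alone. The annotated coding sequence of Mdh2-203 is shown because the shift of frame can be read from it. That sequence ends in TGA after 51 codons, where Mdh2-201 has 338, and capitals mark the bases after the exon junction.
Mdh2-203: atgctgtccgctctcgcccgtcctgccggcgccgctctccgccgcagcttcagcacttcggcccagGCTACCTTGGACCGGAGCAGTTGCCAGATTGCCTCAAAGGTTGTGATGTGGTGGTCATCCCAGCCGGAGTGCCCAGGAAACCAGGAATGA
Mdh2-201 second exon: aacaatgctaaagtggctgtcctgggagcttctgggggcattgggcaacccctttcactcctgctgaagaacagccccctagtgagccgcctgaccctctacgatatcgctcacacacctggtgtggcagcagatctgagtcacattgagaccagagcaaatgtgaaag

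**Figure D4:**
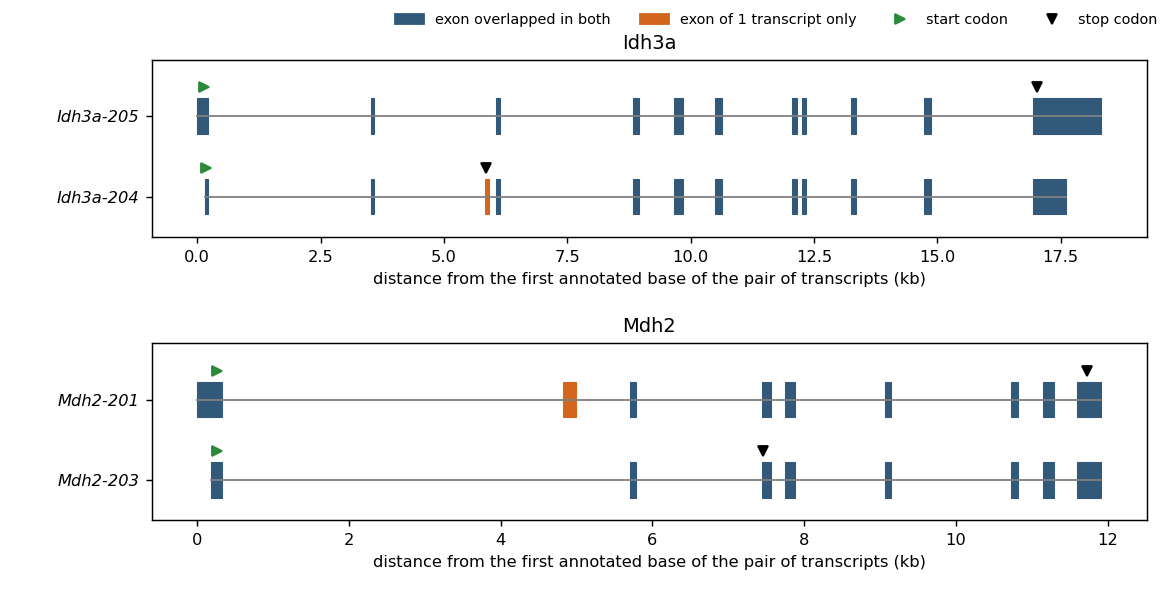
Exons of the leading and second transcript of Idh3a and Mdh2 against the distance in kb from the first annotated base of each pair; orange exons occur in 1 transcript only, and triangles mark start and stop codons. The stop codon of Idh3a-204 lies in its added exon, and that of Mdh2-203 lies after the exon it leaves out.

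The other second transcripts were mostly short models whose share of TPM far exceeded their share of counts. Mdh1-202, 549 bases long, held 39.4% and 40.0% of Mdh1 TPM and 13.4% and 13.8% of its counts. Dlat-202, 770 bases long, held 42.8% and 38.1% of Dlat TPM and 12.2% and 9.97% of its counts. Pdhx-203, Fh1-205, Pdk1-206 and Mpc2-203 showed the same order, with a share of TPM above that of counts in both libraries. TPM divides by length, so a short model gains share over its counts.

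Sucla2 was different, since its leading pair are both long and encode the same protein. Sucla2-203 held 51.8% and 55.2% of Sucla2 TPM and Sucla2-201 held 44.7% and 40.8%, and their coding sequences are identical at 463 codons. In the kallisto-format tables the order turned, with 48.3% and 46.1% for Sucla2-203 and 50.9% and 53.2% for Sucla2-201. Other leading transcripts also changed with the table. Pdp1-206 led with 31.6% and 37.5% of Pdp1 TPM but was at or near 0 in the kallisto-format tables, and Pcx-207, 414 bases long, led with 25.7% and 42.5% of Pcx TPM on 2.66% and 5.54% of its counts. Bckdhb-201 led Bckdhb with 68.7% and 59.1% but held 26.8% and 31.3% in the kallisto-format tables, where Bckdhb-206 led with 73.2% and 63.2%. For Fh1 the kallisto-format leader differed between the libraries: Fh1-205 held 37.9% in replicate 1 and 0.793% in replicate 2, and Fh1-204 held 37.0% and 37.7%.

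**Figure D5:**
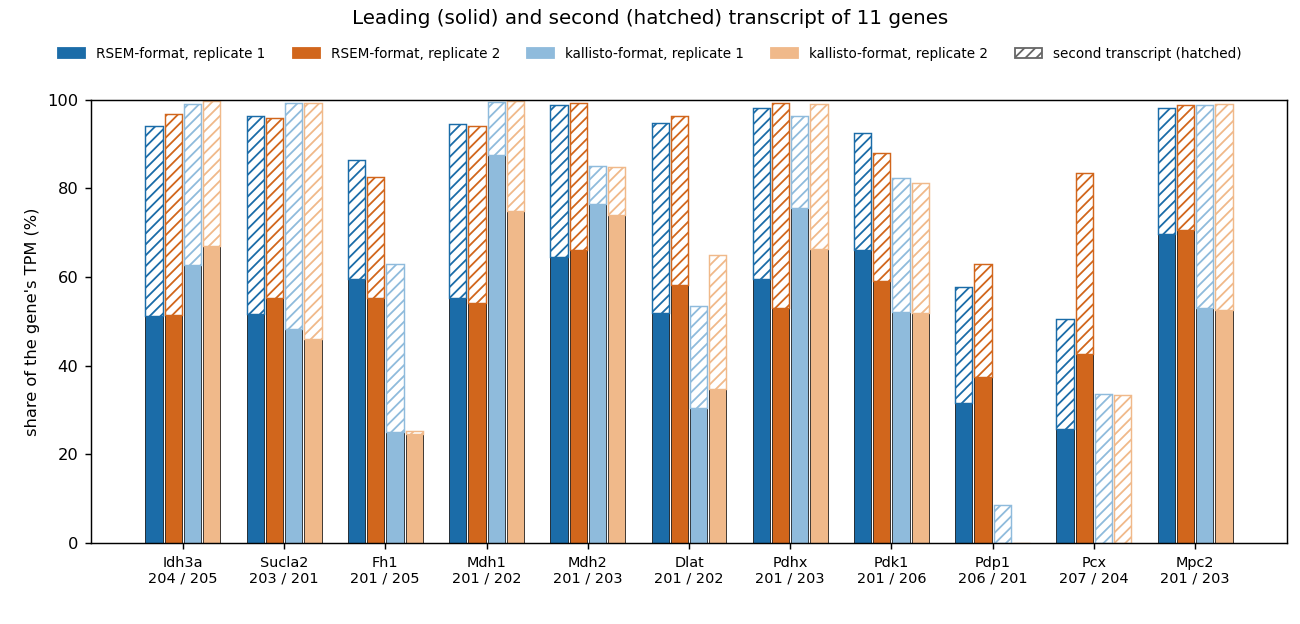
Share of the gene's TPM held by the leading (solid) and second (hatched) transcript of 11 genes in each library and table kind, with the transcript numbers under each gene. Idh3a and Sucla2 are split in all 4 bars, while the leading Pdp1 and Pcx transcripts are at or near 0 in the kallisto-format bars.

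For Ogdh, the annotation offers alternative exons at 1 position, and nearly all full-length TPM came from transcripts with the longer one. Ogdh-201 and Ogdh-204 carry a 103-base exon (chromosome 11, 6316978 to 6317080, plus strand), and Ogdh-202 and Ogdh-203 a 91-base exon just upstream (6316765 to 6316855). They are printed whole, in capitals, since they set apart the groups of transcripts compared. The models also differ in their first and last exons, so the shares cannot be assigned to this exon alone.
Ogdh longer exon: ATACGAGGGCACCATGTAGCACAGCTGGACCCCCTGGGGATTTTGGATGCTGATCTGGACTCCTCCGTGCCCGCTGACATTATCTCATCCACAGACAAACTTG
Ogdh shorter exon: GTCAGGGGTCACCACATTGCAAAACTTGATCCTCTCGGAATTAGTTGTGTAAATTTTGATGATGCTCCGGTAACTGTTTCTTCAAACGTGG
Transcripts with the longer exon had summed TPMs of 163 and 188, and those with the shorter exon 3.14 and 3.81. Transcripts with the longer exon thus held 98.1% ± 0.0735 of full-length Ogdh TPM, and 98.1% ± 0.227 in the kallisto-format tables (SD, n = 2). Both libraries and both kinds of table gave nearly the same share. Ogdh-203 also adds a 45-base exon. The shorter models Ogdh-205, Ogdh-206 and Ogdh-207 were left out of this share, and whether they cover this position was not examined. In the kallisto-format tables Ogdh-207 held 24.6% and 25.2% of Ogdh TPM, and Ogdh-206 held 22.3% and 12.2%.

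The kinds of table differed in level for several genes. Kallisto-format TPM was at least 2-fold from RSEM-format TPM for 6 of the 33, where 11.7% of 12562 detected genes were. These were Fh1, at a log2 ratio of 1.38, Mpc2 at 1.26, Dlst at 1.22, Dlat at 1.16, Ogdh at 1.05 and Mpc1 at 1.02. The median over the 33 was 0.60 and over all detected genes 0.53. After the TPM of nuclear protein coding genes was brought to the same sum in both kinds of table, 0 of the 33 differed by 2-fold, where 5.30% of genes did.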

How the data were processed

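The build was mm10 with GENCODE M21, per the deposited text files. Tools and versions are not given in the sources used; tables are named RSEM-format and kallisto-format after their columns. Per the file headers, the deposited tables give expected counts, in which reads matching several transcripts are divided by a model, and TPM, which corrects for effective length and sums to the same total in each library. The bounds the authors give around TPM were treated as a signal and are not printed, since their level is not stated. Each transcript's percent of its gene's TPM was taken as deposited by the authors.

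Of 81881 rows, 55536 named genes were used; 26248 unnamed rows, which hold 1.38e-05% and 5.00e-06% of counts, and 97 spike-in rows were left out except in spike-in scaling. Spike-ins held 0.720% and 0.798% of counts. Transcripts of the kallisto-format tables were added up by gene. Expected counts were rounded, and replicate ratios are log2 CPM with TMM scaling in edgeR 4.0.16 (R 4.3.3), a prior count of 0.5 and a mean count of at least 20; the biological coefficient of variation was 0.183. The ratio was tested on simulated data. Alternatives were DESeq2 1.42.0 size factors, library totals, spike-in totals, kallisto-format counts, other filters, pseudocounts and fold limits, and leaving out each replicate. Copies of a gene were sought as genes sharing at least 10% of the 31-base words of its leading transcript. Values were computed with Python 3.11.15, pandas 2.3.3 and numpy 2.4.6.

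The 33 genes, the related lists, the markers and the pairs were chosen with earlier results of these data known. Named were all 33 genes, the leading genes of each related list, the 24 pairs, and second transcripts with at least 20% in both libraries; Slc25a13, Fh1-204, Bckdhb-206 and other single transcripts beyond that rule, the Ogdh forms among them, were chosen after their values were seen. Mpc1l was not matched by symbol, nor was Mmut of the 22 branched-chain symbols. Mmut is another symbol of Mut, which is in the same list and was matched. A gene that this rule names is not reported here.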

Additional observations from a re-analysis of the deposited data

How the results depend on the processing

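No paired analysis was possible because there is 1 group and no second group to pair. The share of named gene TPM was 0.587% with kallisto-format TPM, 0.548% with expected counts and 0.773% over nuclear protein coding genes, against 0.360%, and 0.334% to 0.386% with either replicate left out. The Pdk4 share of kinase TPM, 41.7%, was 38.4% with kallisto-format TPM, 45.3% with counts, and 40.0% to 43.4% with either replicate left out. The median log2 replicate ratio, 0.41, was 0.22 with library totals and 0.067 with spike-in totals, which lower every ratio by 0.19 and 0.34. At a 1.5-fold limit, 1 of the 33 genes differed between replicates, where 11.8% of genes did. At that limit 17 differed between table kinds, where 5615 of 12562 detected genes did. After rescaling, 0 differed 2-fold between table kinds, where 5.30% of detected genes did. Without replicate 1, 4 differed 2-fold between table kinds, where 1479 of 12562 genes did. Without replicate 2, 6 did, where 1677 of 12562 did. As ratios of counts, Pdk4 over Pdk2 turned to 0.10 and Bcat2 over Bcat1 to -0.15. Pdha1 over Pdhb, at 0.00 in TPM, and Idh3a over Idh3b, at -0.10, went to 0.94 and 0.34 in counts. Of the 22 pair ratios, 19 moved by less than 1 SD with posterior mean TPM, 6 with kallisto-format TPM and 7 with counts; with 2 libraries, leaving out 1 cannot move a mean by 1 SD, so that setting says nothing here. All 33 genes were detected at a TPM of 0.5, at 10 counts and in kallisto-format tables, and 31 at a TPM of 5. Counts were lowest for Pdk3, with 248 and 236, so its replicate ratio has the widest counting interval of the 33, from -0.29 to 0.23.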

Other observations

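In all, 3 short motifs were searched for in RefSeq promoters (GRCm38.p6, 250 bases before to 50 after each start, both strands), a search added after results of these data were known. Of the 33 genes, 30 matched an entry. TNAAGGTCA, the extended half-site of estrogen-related receptors, was in 0 of the 30, where 1.43% of 27025 genes hold it. The palindrome of NRF1, with 10 bases, was in 0 of the 30, where 1.07% hold it. CCAAT was in 20 of the 30, where 41.1% hold it. All 3 motifs searched are given; a missing match says only that these letters are not in the window, no test was made, and no binding was measured.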
